A study of Mus musculus with 2 samples.

Results

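Ribosome assembly factors are the proteins that cut, modify, fold and export ribosomal RNA without staying in the finished ribosome. In the nucleolus the small-subunit processome assembles on the nascent precursor RNA and releases the precursor of the small subunit, while a separate series of factors builds the precursor of the large subunit. Growing and dividing cells, such as proliferating myoblasts, keep these genes active to supply new ribosomes. The set described here was a named list of 42 such genes. Probes for 38 of them were found by the gene name on the array, out of 18071 genes tested, and 4 more were found through a RefSeq accession under another name. By known role 20 of the 38 were small-subunit factors, 15 were large-subunit factors, and 3 (Ncl, Npm1 and Ddx21) serve more than 1 step. The comparison of interest was of small-subunit with large-subunit factors in cells depleted of Mybbp1a, which encodes a nucleolar protein.

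The cells were C2C12, an established line of mouse skeletal myoblasts from adult leg muscle of strain C3H, stably expressing either a short hairpin RNA that targets Mybbp1a or a control hairpin. Each culture was a mixture of stable clones, grown subconfluent in medium with serum, so cells of both groups carry a hairpin. Knockdown RNA carried the dye Cy5 and control RNA the dye Cy3 on both of 2 arrays, with no dye swap. An effect of the dye on a probe therefore cannot be told apart from that of the knockdown. The arrays are labelled biological replicates 1 and 2. Nothing says whether they came from separate infections or clone mixtures, so p-values cover no more than the scatter of these arrays, part of which may be technical.

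Ratios are log2 of knockdown over control, normalized within each array, with 0 for equal levels and SD over the 2 arrays (n = 2). Log2 levels of knockdown and control RNA, where given, were also normalized for brightness between the arrays. Spots well above background made up 65.6% (Cy5) and 64.9% (Cy3) on array 1, and 79.7% and 72.9% on array 2. Mybbp1a itself read -1.64 on array 1 and -1.91 on array 2. Its mean was -1.78 ± 0.19 with a limma adjusted p of 0.176, so the targeted transcript was lower on both arrays. All 8 myoblast markers examined, Myod1, Myf5 and Des among them, were well above background. Of 4 markers each of endothelium, leukocytes and adipocytes, 2 of each were well above background. Those above it were Cdh5 and Tek, Cd68 and Lyz2, and Pparg and Fabp4, and those not above it were Pecam1 and Kdr, Ptprc and Adgre1, and Adipoq and Plin1. Cdh5 was higher in knockdown cells on both arrays (1.03 and 0.68), as was Tek (0.13 and 0.22), while the leukocyte and adipocyte markers differed in direction between arrays. These counts ask for at least 1 dye channel well above background. When both channels had to be, Cdh5 and Lyz2 dropped out, so the ratios of these 2 rest on a dim channel. Tek then stood alone for endothelium, at a mean of 0.18. The part of these markers in the ratios of the assembly factors was not tested. In cultures measured in bulk, fewer cells of a type and less RNA per cell cannot be told apart.

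Each assembly factor was read by oligonucleotides of 60 bases. For 11 factors the brightest probe has a genomic span on mouse build mm8 that exceeds its length, so that it crosses a splice junction, and holds at least 1 reading frame with no stop codon. All of these except that of Wdr36 are shown, because they read spliced transcripts of both classes, in lower case with no part marked, as the array file gives them.
Rrp12, probe A_52_P527874, chr19:41924570-41924746: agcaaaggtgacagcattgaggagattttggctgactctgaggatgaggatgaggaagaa
Utp20, probe A_51_P319425, chr10:88176807-88177082: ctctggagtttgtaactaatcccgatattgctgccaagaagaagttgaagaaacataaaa
Mphosph10, probe A_52_P463578, chr7:64255720-64256142: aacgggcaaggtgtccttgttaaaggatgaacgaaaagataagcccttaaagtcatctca
Heatr1, probe A_51_P362531, chr13:12492219-12492924: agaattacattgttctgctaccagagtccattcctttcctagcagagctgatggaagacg
Nob1, probe A_51_P266640, chr8:110305342-110306144: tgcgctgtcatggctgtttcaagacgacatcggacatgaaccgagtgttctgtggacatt
Ftsj3, probe A_51_P449935, chr11:106066125-106066282: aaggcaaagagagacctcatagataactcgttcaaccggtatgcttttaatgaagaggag
Wdr12, probe A_51_P420955, chr1:60026706-60026886: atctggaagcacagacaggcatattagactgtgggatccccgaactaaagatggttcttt
Brix1, probe A_51_P292933, chr15:10421605-10423397: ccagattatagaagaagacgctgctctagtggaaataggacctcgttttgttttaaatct
Nle1, probe A_51_P318551, chr11:82717223-82717788: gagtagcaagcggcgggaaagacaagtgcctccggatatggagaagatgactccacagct
Ncl, probe A_52_P623337, chr1:88182198-88182588: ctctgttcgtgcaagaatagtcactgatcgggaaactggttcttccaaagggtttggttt
Those of Rrp12, Utp20, Mphosph10, Heatr1 and Nob1 read small-subunit factors, those of Ftsj3, Wdr12, Brix1 and Nle1 large-subunit factors, and that of Ncl a shared nucleolar protein. Probes of the 38 factors had a median G and C content of 41.7%, against 43.3% over all genes tested.

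Relative to all genes, transcripts of most assembly factors were lower in the knockdown cells, with modest ratios that were lower still on array 2. Of the 38 factors, 34 were lower on both arrays and 0 were higher on both, while 29.4% of all genes tested were lower on both arrays and 40.6% higher. The count depends on the scaling: with each array centred on its median in place of loess, 12 of the 38 were lower on both arrays, against 12.1% of all genes, whose median then lay at 0.21, and 35 of the 38 had a mean ratio below that median. Their medians on arrays 1 and 2 were -0.25 and -0.66, against 0.03 on both arrays for all genes tested. None of the 38 was at least 2-fold lower on both arrays, which 0.0553% of all genes were. By limma's adjusted p of 0.05, 0 of the 38 were called lower and 0 higher, as were 0% of all genes in either direction. At an unadjusted limma p under 0.05, 20 of the 38 were lower and 0 higher, where 7.49% of all genes were lower and 13.4% higher. The fit over 2 arrays has 1 residual degree of freedom. The smallest p of an exact sign-flip test over them is 0.5. Adjusted p-values of the 38 ran from 0.182 to 0.857.

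**Figure D1:**
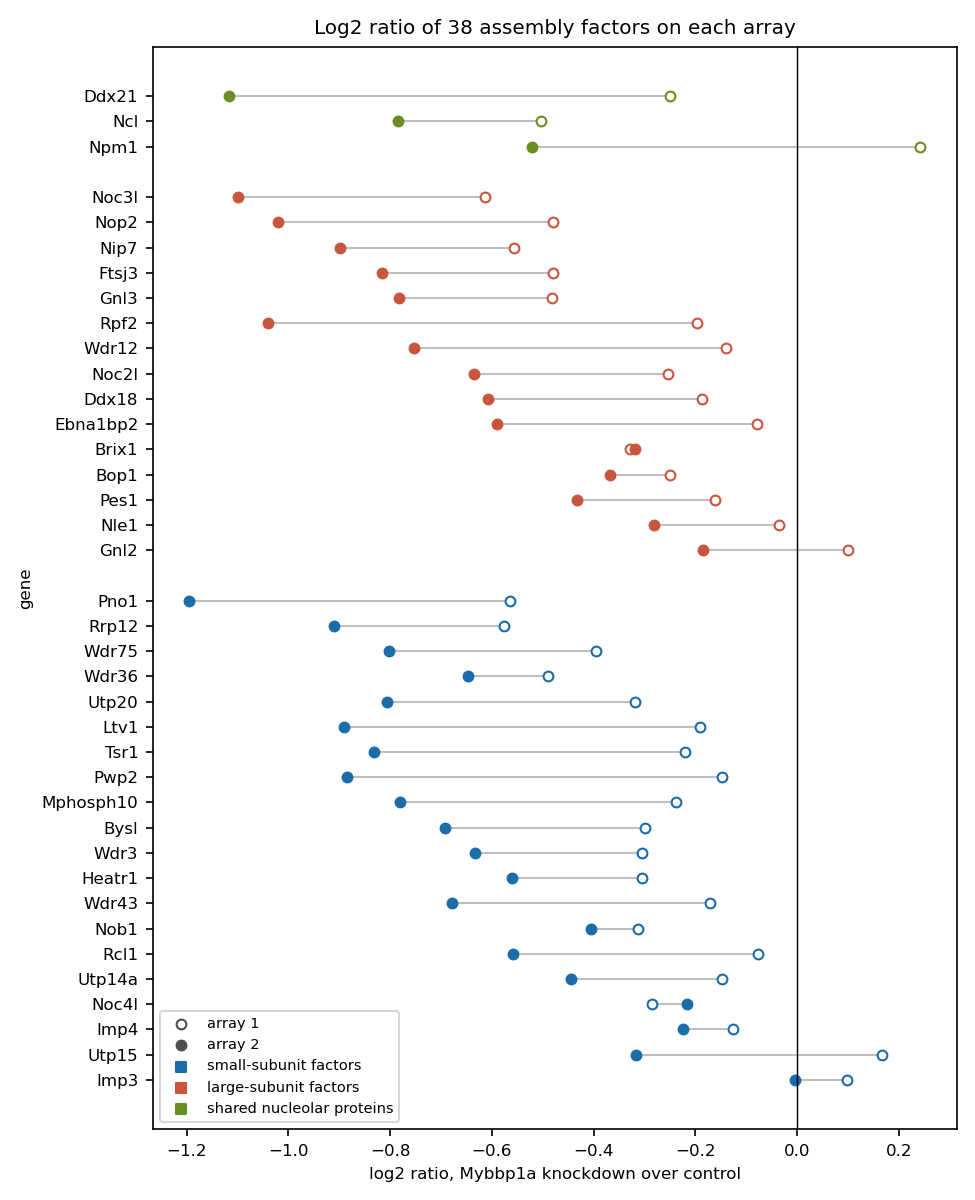
Log2 ratio of knockdown over control (x axis) for each of the 38 assembly factors (y axis), with an open circle for array 1 and a filled circle for array 2, coloured by class. Array 2 lies to the left of array 1 for 36 of the 38 factors, and 34 factors have both circles below 0.

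The ratios differed between arrays more than between classes. On array 1, 34 of the 38 factors were below 0, and on array 2 all 38 were, where 44.5% and 44.3% of all genes were. For 36 of the 38 the ratio was lower on array 2 than on array 1, which held for 49.9% of all genes, and the median difference of array 2 from array 1 was -0.39. The exceptions were Brix1 and Noc4l. The SD of ratios over all genes was also larger on array 2, 0.43 against 0.31. Slide, scan and replicate cannot be told apart here.

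**Figure D2:**
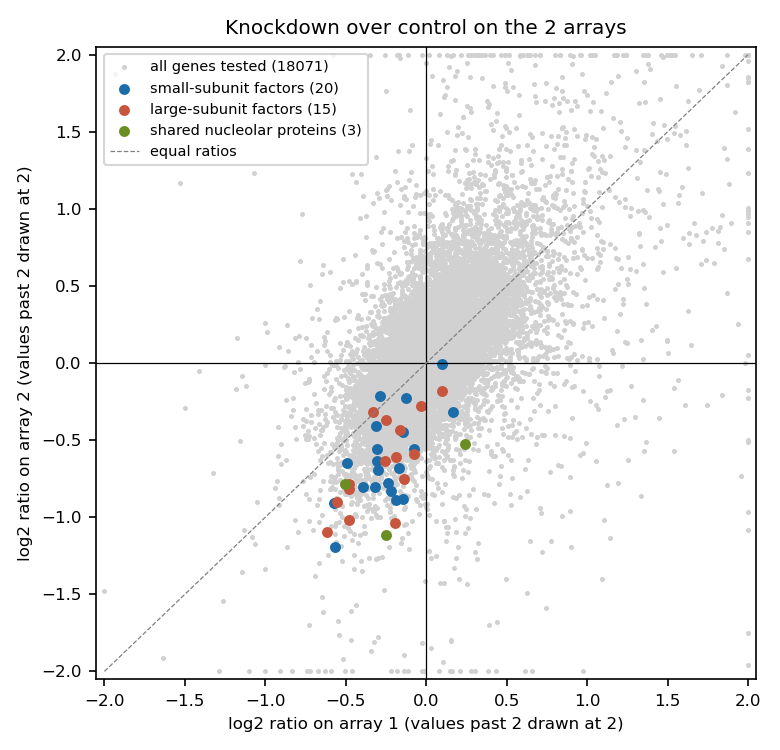
Log2 ratio on array 1 (x axis) against array 2 (y axis) for all 18071 genes tested in grey and the 38 factors in colour, with the dashed line at equal ratios. Values past 2 are drawn at 2, and 36 of the 38 factors lie below the dashed line, small-subunit and large-subunit factors intermixed, and only 4 of them lie to the right of 0 on array 1.

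Small-subunit and large-subunit factors had nearly the same ratios. The 20 small-subunit factors had medians on arrays 1 and 2 of -0.26 and -0.66, and the 15 large-subunit factors -0.25 and -0.64. The difference, small minus large, was -0.011 on array 1 and -0.026 on array 2. The mean was -0.018 ± 0.011 (SD over arrays, n = 2). Both differences are far smaller than the step of each class between the arrays, whose SD was 0.28 for the small-subunit median and 0.27 for the large-subunit one. Of the small-subunit factors 18 of 20 were lower on both arrays, and of the large-subunit factors 14 of 15. Under median centring these counts were 7 of 20, with 2 higher on both, and 5 of 15, with 2 higher on both. Of all genes 12.1% were lower on both arrays under that setting. Mean ratios of 19 of the 20 and 14 of the 15 then lay below the median of all genes. The mean ratios of the classes overlapped almost entirely, from -0.88 to 0.05 for small-subunit and from -0.86 to -0.04 for large-subunit factors. Medians of the mean ratios were -0.48 and -0.44, a difference of -0.04 that turned to 0.0048 when all probes of a gene were averaged. No p is given for the classes, whose members were chosen with earlier results known.

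Factors grouped here as late in small-subunit maturation had a lower median than those grouped as processome factors, a difference that was not tested. All 6 were lower on both arrays, with medians on arrays 1 and 2 of -0.31 and -0.86, while the 14 processome factors had -0.20 and -0.60. Under median centring 3 of the 6 and 4 of the 14 were lower on both arrays, against 12.1% of all genes. With that setting 6 of the 6 and 13 of the 14 had mean ratios below the median of all genes. Pno1, an RNA-binding protein that covers the end of the future small-subunit RNA, gave the lowest mean of all 38. Its normalized log2 level was 14.4 in knockdown and 14.9 in control RNA on array 1, and 14.0 and 15.2 on array 2. Knockdown RNA was thus the lower on both arrays, with ratios of -0.56 and -1.19, a mean of -0.88 ± 0.45 or 1.84-fold lower (limma SE 0.19, adjusted p 0.186). Rrp12, a repeat protein of late maturation and export, read 8.64 in knockdown and 9.22 in control on array 1, and 7.75 and 8.66 on array 2. Its ratios of -0.58 and -0.91 gave a mean of -0.74 ± 0.24 (limma SE 0.12, adjusted p 0.182). Both genes were at least 0.5 lower on both arrays, which 5 of the 38 factors and 0.73% of all genes were.

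Nob1, the endonuclease that makes the final cut of small-subunit RNA, had -0.31 on array 1 and -0.41 on array 2, nearly equal values. Tsr1, a GTPase-like protein of the late particle, had -0.22 and -0.83. Ltv1, a factor of the late small-subunit particle, had -0.19 and -0.89. Bysl, needed for maturation of the particle before export, had -0.30 and -0.69. By their brightest probes the latter 3 were close on each array and differed from Nob1 mainly on array 2. Of the dimmer Bysl probes, 1 read -0.28 and -0.21, with no drop on array 2, and 1 read -0.21 and -0.71.

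The processome factors fall into known subcomplexes. UTP-A, which binds first to the nascent precursor, had medians of -0.24 on array 1 and -0.62 on array 2 over 4 genes. Its large scaffold Heatr1 had -0.30 and -0.56, Wdr75 -0.40 and -0.80, and Wdr43 -0.17 and -0.68. Its remaining gene, Utp15, read 0.17 and -0.32 with its brightest probe, so its direction differed between arrays. UTP-B, a scaffold of propeller proteins that joins next, was lower on both arrays in 3 of 3 genes, and in 1 of 3 under median centring. With that setting 3 of 3 had mean ratios below the median of all genes. Wdr36 had -0.49 and -0.65, Wdr3 -0.30 and -0.63, and Pwp2 -0.15 and -0.88. Wdr36 thus varied least between the arrays and Pwp2 most.

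The MPP10 complex holds Mphosph10, Imp3 and Imp4 and pairs the guide RNA U3 with the precursor. Its genes did not share 1 level. Mphosph10 had -0.24 and -0.78, Imp4 had -0.13 and -0.22, and Imp3 had 0.10 and -0.0035. Imp3 gave the highest mean of the 38, 0.05 ± 0.07 (limma SE 0.09, adjusted p 0.784), from levels of 13.9 in knockdown and 13.8 in control on array 1 and 13.8 in both on array 2. It was the only 1 of the 38 with a mean above 0.

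Other processome factors were lower on both arrays in 4 of 4 genes found by name, with a median of mean ratios of -0.31. Under median centring 0 of 4 were lower on both arrays and 1 was higher, with a median of -0.04. The median of all genes was then 0.21, and 4 of 4 had mean ratios below it. Utp20, a very large scaffold, had -0.32 and -0.81. Utp14a, which activates a helicase of the processome, had -0.15 and -0.44. Rcl1, a cyclase-like protein that acts with the GTPase Bms1, had -0.077 and -0.56. Noc4l, the small-subunit member of the NOC family, had -0.29 and -0.22, so it was lower on array 1 than on array 2. Its partner Nop14, found through its accession, had -0.29 and -0.69.

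Among large-subunit factors the lowest mean belonged to Noc3l, a NOC protein of early large-subunit particles. Its level was 9.40 in knockdown and 10.02 in control on array 1, and 9.34 and 10.4 on array 2. The ratios of -0.61 and -1.10 gave a mean of -0.86 ± 0.34 or 1.81-fold lower (limma SE 0.15, adjusted p 0.182). Noc2l, which forms a dimer with Noc3l, had -0.25 and -0.64, so the 3 NOC genes ranged widely. Nop2, listed on the array as Nol1, is a methyltransferase that modifies a cytosine of large-subunit RNA. It read 14.4 in knockdown and 14.9 in control on array 1, and 14.0 and 15.0 on array 2. Its ratios of -0.48 and -1.02 gave a mean of -0.75 ± 0.38 (limma SE 0.17, adjusted p 0.188). Ftsj3, another methyltransferase-like factor, had -0.48 and -0.82.

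The PeBoW complex of Pes1, Bop1 and Wdr12, required for processing of the spacer between large-subunit RNAs, had medians on arrays 1 and 2 of -0.16 and -0.43. All 3 genes were lower on both arrays, although under median centring 0 of 3 were. The median of their mean ratios was then 0.012, against 0.21 for all genes, and all 3 lay below that value. Wdr12 had -0.14 and -0.75, Pes1 -0.16 and -0.43, and Bop1 -0.25 and -0.37. Rpf2, listed as Bxdc1, helps to insert the 5S RNA particle and had -0.20 and -1.04. The helicase Ddx18 had -0.19 and -0.61, and Ebna1bp2 had -0.078 and -0.59. Brix1, listed as Bxdc2 and like Rpf2 and Imp4 a protein with a Brix domain, had -0.33 and -0.32. These 3 Brix genes did not share 1 level, since Rpf2 was low mainly on array 2 and Imp4 had smaller ratios than Brix1 on both arrays. Imp4 had the dimmest probe of the 38 factors, at 8.11 in mean log2 brightness. With the scanner software's processed signals its mean ratio was -0.32, so its level depends on the processing.

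Late large-subunit factors gave both low and near-zero ratios. Nip7, which binds precursor RNA, had -0.56 and -0.90, at least 0.5 lower on both arrays. The nucleolar GTPase Gnl3, also called nucleostemin and known from stem and dividing cells, had -0.48 and -0.78. Its relative Gnl2, a GTPase needed for release of the large particle from the nucleolus, had 0.10 and -0.18, a mean of -0.04 ± 0.20 (limma SE 0.11, adjusted p 0.857), the highest of its class. Nle1, which the remodelling enzyme Mdn1 removes from the particle, had -0.04 and -0.28. Among members found through accession, Nop16 had -0.25 and -0.72, Mrto4, a relative of the ribosomal stalk protein, -0.21 and -0.62, and Rrp1b 0.0049 and -0.27. With all 4 such genes added, 37 of 42 were lower on both arrays.

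The 3 abundant nucleolar proteins differed in direction on array 1. Nucleolin, Ncl, which binds nascent precursor RNA and chromatin of its genes, read 16.3 in knockdown and 16.8 in control on array 1, and 16.0 and 16.8 on array 2. Its ratios of -0.50 and -0.78 gave a mean of -0.64 ± 0.20 (limma SE 0.11, adjusted p 0.182). The helicase Ddx21, which acts in transcription and processing of precursor RNA, read 12.5 against 12.7 and 11.5 against 12.7. Its ratios were -0.25 and -1.12, a mean of -0.68 ± 0.61 (limma SE 0.25, adjusted p 0.255). The histone chaperone Npm1, or nucleophosmin, read 17.4 against 17.2 and 16.9 against 17.5. Its ratios of 0.24 and -0.52 gave a mean of -0.14 ± 0.54 (limma SE 0.22, adjusted p 0.755), so its direction differed between arrays. Which related sequences the Npm1 probes also read was not tested.

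Separate probes of the same gene mostly gave the same direction. Of the 38 factors, 19 had more than 1 tested probe, and in 14 of these every probe was lower on both arrays. Of 63 tested probes 55 were lower on both arrays. Ddx21 had 3 probes with ratios of -0.25, -0.28 and -0.41 on array 1 and -1.12, -1.20 and -1.40 on array 2. The exceptions were Utp15, Utp20, Brix1, Ncl and Npm1. The second Utp15 probe, at 7.09 in mean log2 brightness where the brightest had 9.33, read -0.26 and -0.38. The second Utp20 probe, also dim at 7.18, was well above background in control RNA on 1 array and read 0.08 and 0.20. For Brix1 the second probe read 0.25 and 0.07, in the opposite direction to the brightest. One of 4 Ncl probes read 0.05 on array 1, while the other 3 were lower on both arrays, and the second Npm1 probe read 0.0051 and -0.75.

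**Figure D3:**
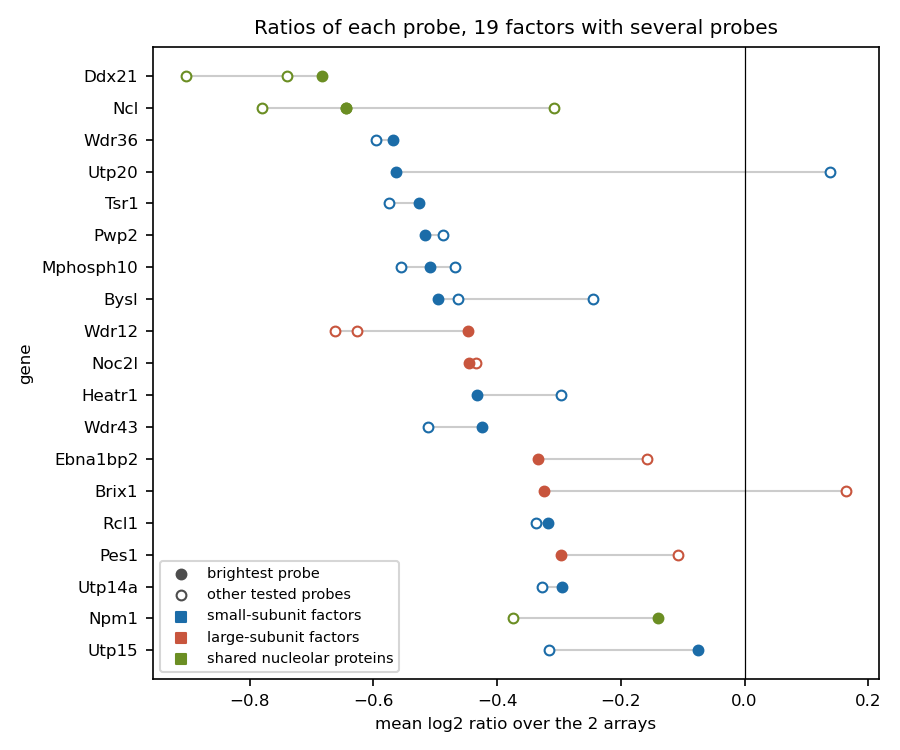
Mean log2 ratio over the 2 arrays (x axis) of every tested probe of the 19 factors with more than 1 (y axis), filled for the brightest probe and open for the others, coloured by class. All probes lie below 0 except the second probes of Utp20 and Brix1.

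Feature Extraction, the scanner's software, also deposited a p-value for each spot from an error model of 1 array, which leaves out the spread between cultures. By that deposited p-value under 0.05 with a lower ratio on both arrays, 9 of the 38 factors passed, against 2.57% of all genes. They were Pno1, Rrp12, Wdr36, Noc3l, Nop2, Nip7, Ftsj3, Gnl3 and Ncl. This group holds 3 small-subunit factors of 20, 5 large-subunit factors of 15 and 1 shared protein.

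Other assembly factors, from lists of genes not among the 42 names, had weaker ratios in the same direction. These lists too were chosen with earlier results of these data known, so they are no independent support. Of 37 other small-subunit factors, 27 were lower on both arrays and 2 higher, with medians on arrays 1 and 2 of -0.16 and -0.33. Their mean ratios ran from Esf1 (-0.44 and -0.72) to Utp11 (0.12 and 0.0092). Of 39 other large-subunit factors, 32 were lower on both and 1 higher, with medians of -0.16 and -0.43, from Rrp15 (-0.56 and -1.04) to Nop53 (0.04 and 0.15). Among core proteins of small nucleolar ribonucleoproteins, which guide the modification of ribosomal RNA, 7 of 8 were lower on both arrays, with medians of -0.29 and -0.83. The lowest was the pseudouridine synthase Dkc1 (-0.53 and -1.19). Genes of RNA polymerase I and its initiation factors, which transcribe the precursor, had medians of -0.08 and -0.34, with 10 of 14 lower on both arrays. With median centring, the medians of mean ratios turned above 0 for the other small-subunit factors (0.04), the other large-subunit factors (0.015) and RNA polymerase I (0.08), though still below 0.21 for all genes, and stayed at -0.10 for the nucleolar ribonucleoproteins. In none of these 4 lists did a gene pass limma's adjusted p of 0.05. At an unadjusted limma p under 0.05, 12, 18, 4 and 4 were lower in the order given, and 0, 0, 0 and 1 higher. Of all genes tested, 7.49% were lower and 13.4% higher at that p, and 29.4% were lower on both arrays.

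Ribosomal proteins themselves, the structural parts that these factors assemble, had ratios mostly above 0. Of 79 cytosolic ribosomal proteins, 64 were higher on both arrays and 3 lower, with medians on arrays 1 and 2 of 0.39 and 0.21. Of all genes tested, 40.6% were higher on both arrays and 29.4% lower. The highest cytosolic gene was Rpl41 (1.08 and 0.70) and the lowest Rpl14 (-0.12 and -0.28). In each processing that held all 79, their median was above 0, from 0.16 with the scanner software's processed signals to 0.88 under median centring. The deposited value table held 33 of the 79, and its median over those was -0.04. The part of the missing genes and probes in that value was not tested. Their probes were very bright, at a median of 17.3 in log2 intensity where it was 12.4 for the 38 factors and 10.3 for all genes tested. Many have near-identical copies in the genome, and which copies the probes read was not tested. Mitochondrial ribosomal proteins had medians of -0.09 and -0.24, with 50 of 78 lower on both arrays and 9 higher. Under median centring their median was 0.18, against 0.21 for all genes. In both lists 0 genes passed limma's adjusted p of 0.05. At an unadjusted limma p under 0.05, 38 cytosolic genes were higher and 0 lower, and 10 mitochondrial genes were lower and 0 higher. The shares over all genes at that p were 13.4% higher and 7.49% lower.

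**Figure D4:**
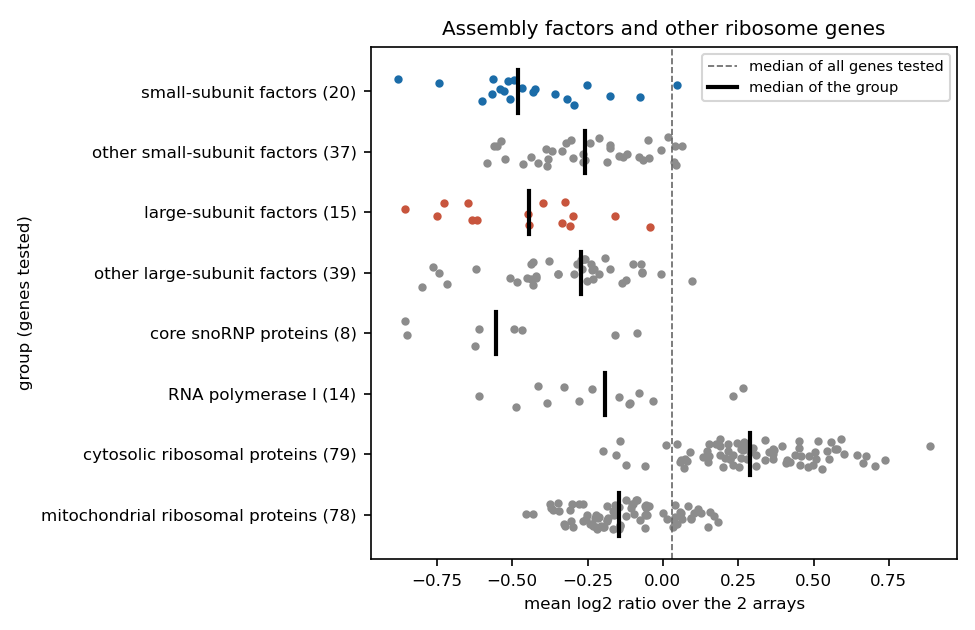
Mean log2 ratio over the 2 arrays (x axis) of each gene in the assembly factor classes and in other ribosome lists (y axis, with the number of genes tested), with a bar at each median and a dashed line at the median of all genes, 0.03. Medians are -0.48 and -0.44 for small-subunit and large-subunit factors and 0.29 for the 79 cytosolic ribosomal proteins. Over the 33 of these in the deposited value table the median is -0.04.

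Of 7 proliferation markers, 6 were lower on both arrays, against 29.4% of all genes tested. Their medians on arrays 1 and 2 were -0.32 and -0.18. Under median centring the median of their mean ratios was 0.16, against 0.21 for all genes. Mki67 read -0.36 and -0.08. Of the 7, Ccnb1 and Cdk1 were lower on array 2 than on array 1 and the other 5 were not. Myc, a transcription factor known to drive assembly factor genes, read -0.11 and -0.31. Its mean was -0.21 ± 0.14 (limma SE 0.10, adjusted p 0.323). Of 5 tested fibroblast markers, 5 were higher on both arrays, against 40.6% of all genes tested, while Thy1 was not well above background. Medians of the 5 on arrays 1 and 2 were 0.42 and 1.38, with mean ratios from 0.20 (Lum) to 3.16 (Col1a1). The part of these markers in the ratios of the assembly factors was not tested.

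Promoters of the factors were searched for letters bound by known growth regulators. The table of RefSeq promoters on build GRCm38.p6 held 33 of the 38 genes, and the 250 bases before the start were read on both strands. CACGTG, the E-box bound by Myc among other proteins, was found for Imp4, Nop2 and Rpf2, 9.09% of 33 genes, against 9.29% of 11475 tested genes and 6.86% of all 27025 genes in the table. CCGGAAG, which ETS-family proteins can bind, was found for 8 genes, 24.2%, against 13.9% and 7.83%. These were Heatr1, Ltv1, Mphosph10, Pwp2, Brix1, Nip7, Nop2 and Rpf2, 4 small-subunit and 4 large-subunit factors. TCTCGCG was found for Tsr1 and Wdr12, 6.06%, against 4.58% and 2.42%. No 2 matches overlapped. The promoters of the 2 lowest genes of each class that the table held are shown from RefSeq, 5′ to 3′ on the gene's strand, with matches in capitals.
Pno1, chr11:17211590-17211839, - strand: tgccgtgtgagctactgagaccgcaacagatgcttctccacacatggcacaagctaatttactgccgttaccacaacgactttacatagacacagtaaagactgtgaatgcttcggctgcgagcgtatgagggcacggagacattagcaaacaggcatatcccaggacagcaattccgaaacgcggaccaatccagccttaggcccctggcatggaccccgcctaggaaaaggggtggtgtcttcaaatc
Wdr75, chr1:45794916-45795165, + strand: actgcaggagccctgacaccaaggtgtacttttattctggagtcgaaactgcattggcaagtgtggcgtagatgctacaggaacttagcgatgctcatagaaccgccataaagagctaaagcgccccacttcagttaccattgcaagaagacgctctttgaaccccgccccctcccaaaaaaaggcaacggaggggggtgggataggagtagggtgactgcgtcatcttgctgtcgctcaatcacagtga
Noc3l, chr19:38819238-38819487, - strand: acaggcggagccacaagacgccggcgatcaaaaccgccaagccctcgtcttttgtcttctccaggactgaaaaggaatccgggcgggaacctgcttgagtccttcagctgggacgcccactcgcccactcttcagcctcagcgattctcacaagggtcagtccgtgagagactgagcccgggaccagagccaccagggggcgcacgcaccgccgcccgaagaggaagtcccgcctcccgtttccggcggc
Nop2, chr6:125131633-125131882, + strand: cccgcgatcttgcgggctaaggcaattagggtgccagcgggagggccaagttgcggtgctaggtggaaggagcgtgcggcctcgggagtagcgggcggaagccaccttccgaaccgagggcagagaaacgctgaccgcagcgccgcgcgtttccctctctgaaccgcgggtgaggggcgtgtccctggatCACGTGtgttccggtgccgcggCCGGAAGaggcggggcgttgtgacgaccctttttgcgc
Only Nop2 held a match among these, with CACGTG beginning 60 bases and CCGGAAG 38 bases before the start. A match is a description of letters and says nothing of binding.

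Of the processing choices, median centring in place of loess moved the class medians most. It also took the count lower on both arrays from 34 to 12 of the 38, and the cause was not tested. Under the median centring given above, the small-subunit median was -0.18 and the large-subunit median -0.11, which lie at -0.40 and -0.33 relative to that of all genes. Under loess the medians lie at -0.51 and -0.48 relative to all genes. Under median centring limma called 0 of the 38, with a lowest adjusted p of 0.0523, while it called 3037 genes higher and 58 lower.

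**Figure D5:**
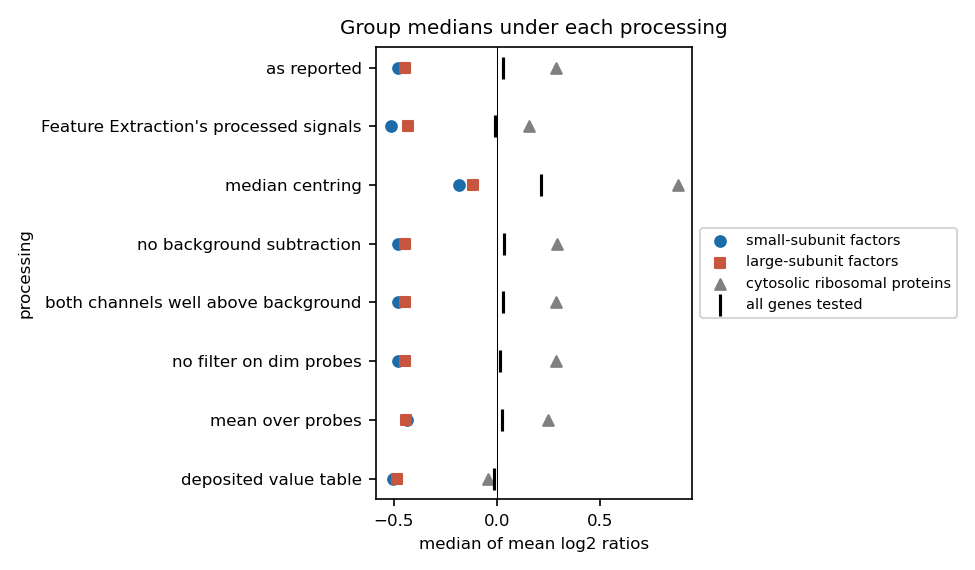
Median of mean log2 ratios (x axis) of the small-subunit factors, large-subunit factors, cytosolic ribosomal proteins and all genes tested under each processing (y axis). Both classes stay together and below all genes in each setting, at -0.18 and -0.11 under median centring, while the cytosolic ribosomal proteins range from -0.04 (33 genes in the deposited table) to 0.88.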

How the data were processed

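RNA of Mybbp1a knockdown and control C2C12 cells was compared on 2 two-colour Agilent arrays. Agilent Feature Extraction 9.5.3.1 read the spots, per the file headers, and probe positions are on mm8. The authors deposited mean and background intensity values without subtraction, processed intensity values that the software had corrected for background and dye, the log10 ratio (Cy5 over Cy3) and a single-array p-value, per the file headers. The deposited table of the series holds log2 ratios of unstated processing, with a median of 0 on both arrays. Its mean ratios for Heatr1 (-0.50), Utp15 (-0.24) and Pwp2 (-0.55) equal those from the processed intensity values, so these are not independent alternatives. Intensities were corrected with normexp (offset 50) and ratios normalized by loess (span 0.3, control spots at weight 0) in limma 3.58.1 under R 4.3.3. Levels of each channel were taken after quantile normalization of mean brightness between the arrays, which leaves the ratios unchanged. Flagged outlier spots were left out, 154 on array 1 and 237 on array 2, and saturated spots were kept. None of the 38 factors had a saturated probe. A probe was tested where at least 1 channel was well above background on both arrays, and the brightest probe stood for its gene. Ratios were tested against 0 with lmFit and eBayes (two-sided, Benjamini-Hochberg over 18071 genes, threshold 0.05). The number of arrays limits the precision. The fit was tested on simulated data.

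Members were found by the array's gene name, with Nop2, Brix1 and Rpf2 under their older names. The members and the gene lists were chosen with earlier results of these data known, and no list was tested as a set. All members are named with both ratios, and full statistics are given for the 2 lowest and the highest of each class and for Ncl, Npm1 and Ddx21. Other genes with values are the target, Myc, Mki67 and the lowest and highest of the lists. RNA polymerase I genes Twistnb, Cd3eap and Znrd1 were listed under their older names. Alternatives were the processed signals, median centring, no background subtraction, other filters, the mean over probes, the deposited table, other classes of some factors, and each array alone.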

Additional observations from a re-analysis of the deposited data

How the results depend on the processing

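Of 376 recomputed ratios of single factors, 361 kept their direction and 15 reversed. The count includes recomputations that could not differ. Other filters on dim probes left the brightest probe of each factor, and so its ratio, unchanged. For factors such as Heatr1 (-0.50 in both) the deposited table repeated the ratio from the processed signals. Median centring turned 10 factors above 0: Utp15 (0.14), Noc4l (0.021), Pes1 (0.037), Bop1 (0.012), Ebna1bp2 (0.13), Brix1 (0.090), Rrp1b (0.11), Gnl2 (0.30), Nle1 (0.10) and Npm1 (0.45). It also put the small-subunit median at -0.18, the large-subunit median at -0.11 and the count lower on both arrays at 12 of 38. With it 12.1% of all genes were lower on both arrays, and the median of all genes was 0.21. Taken relative to all genes under that setting, a choice made after seeing the data, the medians were -0.40 and -0.33. That setting leaves in place the trend of the ratio with brightness, and what moved the values was not tested.

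The difference of small minus large medians was -0.082 with the processed signals, -0.068 under median centring, -0.018 with the deposited table, -0.024 without Rrp12, Ddx18 and Ftsj3, and -0.063 with the 4 genes found by accession (added after seeing the data). It reversed to 0.0048 with the mean over probes, and the cause was not tested. From 1 array alone, which gives a value with no test, it ranged from -0.026 to -0.011. The small-subunit median ranged from -0.66 to -0.26, the large-subunit median from -0.64 to -0.25, and the count below 0 from 34 to 38. Single arrays gave Utp15 -0.32 to 0.17, Imp3 -0.0035 to 0.10, Rrp1b -0.27 to 0.0049, Gnl2 -0.18 to 0.10 and Npm1 -0.52 to 0.24. Limma called 0 of the factors in each of the 7 alternatives in which it was run. The deposited table held 36 of the 38, without Pno1 and Nop2. The analysis was paired within arrays, because each array sets knockdown against control and each ratio comes from 1 array. No further pairing was possible, since each replicate is 1 array.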
